A study of Mus musculus with 17 samples.

Results

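The cytokines and receptors of the interleukin-6 (IL-6) and interleukin-12 (IL-12) families were described in macrophages exposed to HIV Tat. The 10 genes were Il6, Lif, Osm, Il12a, Il12b, Il23a, Il27, Ebi3, Il6st and Il6ra, chosen by gene symbol out of 21683 genes in the expression table. The samples were 17 RNA-Seq libraries of thioglycollate-elicited peritoneal macrophages (PMs) of C57BL/6 mice, made to learn how IKKβ, the kinase that activates canonical NF-κB, takes part in the response of macrophages to Tat. All mice carried loxP-flanked IKKβ alleles and lacked the LDL receptor, and were 8 weeks old and male. The F/F PBS group (n = 6) and the F/F Tat group (n = 6) came from IKKβF/FLDLR-/- mice, and the ΔMye Tat group (n = 5) came from IKKβΔMyeLDLR-/- mice, which also had 1 LysM-Cre knock-in allele, which drives Cre in myeloid cells, neutrophils included. PMs were left to attach for 4 h and then received 100 nM Tat, a recombinant protein made in bacteria with its endotoxin removed, or PBS, for 12 h. The placebo solution of the Tat preparation was not a control in these libraries. ΔMye PMs given PBS were not analysed here, so what sets the Tat groups of both genotypes apart may have been there before Tat.

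IL-6, LIF and oncostatin M signal through receptors that share the gp130 chain, encoded by Il6st, and activate STAT3. IL-6 binds its own receptor chain, encoded by Il6ra, which macrophages can also shed in soluble form. The IL-12 family is built from shared subunits: p40 (Il12b) pairs with p35 (Il12a) to form IL-12 and with p19 (Il23a) to form IL-23, p28 (Il27) pairs with EBI3 (Ebi3) to form IL-27, and p35 pairs with EBI3 to form IL-35, so the level of a cytokine depends on the balance of its chains. In activated macrophages several of the cytokine genes are classical targets of NF-κB, and IL-12 and IL-23 steer T helper cell differentiation. RNA levels of the chains, not the assembled cytokines, were measured.

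The promoters of Il6, Il12a and Il12b are shown because Il6 and Il12a were lower and Il12b was higher in ΔMye Tat than in F/F Tat. The windows run from 250 bases before to 50 bases after the start site in RefSeq (GRCm38.p6), 5′ to 3′ on the strand of the gene, which is the plus strand for all of them. They lie at chr5:30012864-30013163 for Il6, chr3:68691174-68691473 for the second of the Il12a start sites and chr11:44399813-44400112 for Il12b. Capitals mark matches to a κB motif written as GGG, any 5 bases and CC, read on both strands, so that overlapping matches run together, and distances are those of the leftmost base of a match.
Il6: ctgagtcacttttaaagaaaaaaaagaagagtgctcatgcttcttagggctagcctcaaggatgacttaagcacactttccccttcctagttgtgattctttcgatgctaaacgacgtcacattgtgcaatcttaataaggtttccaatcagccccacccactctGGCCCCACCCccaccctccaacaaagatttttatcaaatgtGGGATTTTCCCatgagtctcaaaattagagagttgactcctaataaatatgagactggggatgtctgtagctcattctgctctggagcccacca
Il12a: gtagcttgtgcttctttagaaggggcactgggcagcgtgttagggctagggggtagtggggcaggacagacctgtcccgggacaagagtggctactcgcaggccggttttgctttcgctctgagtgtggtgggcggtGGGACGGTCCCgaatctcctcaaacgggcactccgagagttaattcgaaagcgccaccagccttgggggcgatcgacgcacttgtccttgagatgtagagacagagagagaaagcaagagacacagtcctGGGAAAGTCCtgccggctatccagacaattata
Il12b: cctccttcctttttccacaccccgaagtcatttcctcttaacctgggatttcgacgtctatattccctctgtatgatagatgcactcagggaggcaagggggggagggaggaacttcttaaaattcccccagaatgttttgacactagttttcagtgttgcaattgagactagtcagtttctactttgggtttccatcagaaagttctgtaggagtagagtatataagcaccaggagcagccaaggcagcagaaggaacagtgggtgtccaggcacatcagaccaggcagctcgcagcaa
The Il6 window held the κB letters GGGATTTTCC 44 bases before the start site and a match on the minus strand 85 bases before it. It also held a C/EBP motif (TTGCNNAA) 128 bases and an AP-1 motif (TGANTCA) 249 bases before the start site. The Il12a window shown held κB matches on the plus strand 113 bases before and 17 bases after the start site, and the window of the other Il12a start site held none. The Il12b window held no match to these motifs as written, nor to the interferon-sensitive element (GAAA, any 2 bases and GAAA). Sites that depart from these letters are missed, so a window without a match may still hold such a site. Binding was not measured, and the part of these motifs in the levels was not tested. Of all 32851 promoter windows, 50.8% held the κB motif, 10.8% the C/EBP motif, 7.81% the AP-1 motif and 3.44% the interferon-sensitive element, so a κB match alone does not set a promoter apart. Windows matched 7 of the 10 genes (all but Il23a, Il27 and Osm), and those of Lif, Ebi3, Il6ra and Il6st each held at least 1 κB match.

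Expression was given as TPM, the relative abundance of a transcript after scaling for its length and for the library total. Read counts are not part of these values, and the depth of the libraries is unknown. The listed genes summed to between 889318 and 903576 TPM per library. Of the 21683 genes, 10451 reached 1 TPM in at least 5 libraries and were tested with limma on log2(TPM + 0.1), a scale that understates the change of low genes. All 10 cytokine and receptor genes were among them, Il23a and Lif through the Tat groups alone. A gene is said to have passed at an adjusted p (Benjamini-Hochberg over the 10451 genes) under 0.01, and to be called where the fold change was also over 3. With Tat, the median log2 difference of the tested genes was -0.65 in F/F PMs, and between the Tat groups it was 0.22 (ΔMye minus F/F). Differences are therefore also given after median-ratio scaling, in which the typical gene is set to the same level in all libraries, and which brought these medians to -0.03 and 0.01. The labels do not say whether the libraries of a group came from separate animals, while the heatmap legends of the study describe the columns as biological replicates of mice. The p-values measure the spread between libraries only.

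Ikbkb, which encodes IKKβ, was 24.5 to 30.1 TPM in F/F PBS, 21.6 to 25.4 TPM in F/F Tat and 12.8 to 19.9 TPM in ΔMye Tat, with no overlap between the Tat groups (log2 difference -0.51, standard error 0.08, adjusted p = 4.51e-05, limma). Only part of this gene is deleted, so its total level is a weak check of the genotype. The macrophage markers Adgre1, Cd68, Csf1r, Itgam, Lyz2 and Mertk were present in every library, and their summed level was 25494 to 26489 TPM in F/F PBS, 9135 to 9755 TPM in F/F Tat and 6849 to 7145 TPM in ΔMye Tat. Most of these sums and all of the fall between the Tat groups came from Lyz2, the gene that carries the Cre, at means of 22382, 6993 and 4333 TPM. Of the other 5 markers, Adgre1, Cd68 and Csf1r passed as higher in ΔMye Tat than in F/F Tat (441 and 512, 1744 and 1886, and 64.0 and 103.6 TPM in the means), and Itgam and Mertk, also with higher means, did not pass. After median-ratio scaling only Csf1r of these 5 passed (log2 difference 0.47, adjusted p = 9.98e-05, limma). Adgre1 and Cd68 were then at -0.0002 and -0.10 (adjusted p = 0.997 and 0.0373, limma). Markers of dendritic cells, another source of IL-12, summed to at most 2.11 TPM over 5 genes in any library. T cell markers (5 genes) summed to 3.21 to 7.85 TPM in F/F PBS, 1.82 to 2.95 TPM in F/F Tat and 6.78 to 9.17 TPM in ΔMye Tat, and neutrophil markers (4 genes) to 52.1 to 59.2, 64.8 to 77.5 and 87.4 to 104.6 TPM, nearly all from S100a8, with Ly6g at no more than 1.28 TPM. The T cell and neutrophil sums did not overlap between the Tat groups, and the part of other cell types in the results below was not tested. Fewer cells of a type and less RNA per cell cannot be told apart in bulk samples.

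In F/F PMs, Tat raised all 8 cytokine genes and lowered both receptor genes. Il6 moved most, 355-fold in the means, followed by Il27 and Il12a. Ebi3, already well expressed in PBS, rose by less than the other cytokine genes.

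**Figure D1:**
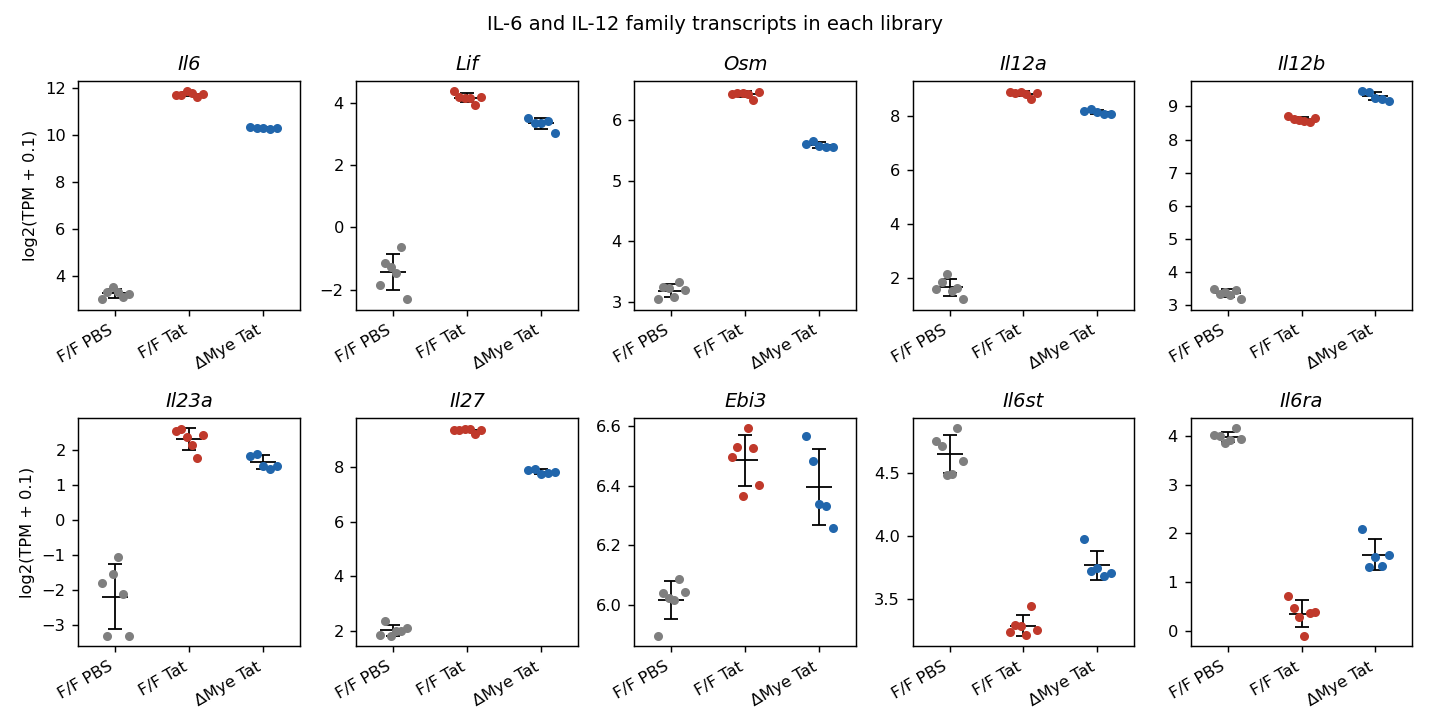
Expression of the 10 cytokine and receptor genes in each of the 17 libraries, as log2(TPM + 0.1), with 1 panel per gene and its own vertical scale. Points are libraries, and bars show the mean and SD of the 6 F/F PBS, 6 F/F Tat and 5 ΔMye Tat libraries. F/F Tat lies above F/F PBS for the 8 cytokine genes and below it for Il6st and Il6ra, and Il12b is the cytokine gene whose ΔMye Tat libraries lie above F/F Tat.

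Il6, which encodes the acute-phase cytokine IL-6 (chromosome 5, 30013114 to 30019981 of GRCm38, plus strand), ranged from 7.96 to 11.5 TPM in F/F PBS (median 9.60) and from 3137 to 3672 TPM in F/F Tat (median 3382). The means were 9.55 ± 1.24 TPM and 3393 ± 180.3 TPM (SD, n = 6 each). No F/F Tat library came near the PBS range. The log2 difference was 8.47 (standard error 0.06, adjusted p = 3.41e-26, limma), larger than that of every other gene described here. By mean TPM, Il6 was in place 6498 of the 21683 genes in F/F PBS and in place 29 in F/F Tat.

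Lif, whose product keeps stem cells undifferentiated and acts on many tissues, and Osm, which encodes oncostatin M, lie side by side on chromosome 11, 16530 bases apart with no gene between them. Lif (4257557 to 4272514, plus strand) was 0.101 to 0.547 TPM in F/F PBS (median 0.290) and 15.3 to 20.6 TPM in F/F Tat (median 18.1). Osm (4236420 to 4241026, plus strand) was 8.11 to 9.87 TPM in F/F PBS (median 9.14) and 80.4 to 88.6 TPM in F/F Tat (median 86.8). Neither gene had an overlap between the groups, and the lower starting level belonged to Lif. The log2 difference was 5.62 (standard error 0.20, adjusted p = 9.83e-16, limma) for Lif, and over the other settings it ran from 3.88 with a pseudocount of 1 to 6.18 with quantile normalization. For Osm it was 3.25 (standard error 0.05, adjusted p = 6.21e-22, limma).

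Among the IL-12 subunits, Il12a (chromosome 3, 68690644 to 68698547, plus strand), the p35 chain, was 2.21 to 4.30 TPM in F/F PBS (median 2.96) and 405.9 to 485.6 TPM in F/F Tat (median 463.6). Il12b (chromosome 11, 44400063 to 44414033, plus strand), the p40 chain, was 8.96 to 11.2 TPM in F/F PBS (median 10.3) and 372 to 418 TPM in F/F Tat (median 390.0). Il12b thus started above Il12a and ended just under it, with ranges that met in F/F Tat. The log2 difference was 7.19 for Il12a (standard error 0.10, adjusted p = 8.09e-22, limma). It was 5.24 for Il12b (standard error 0.06, adjusted p = 7.44e-24, limma).

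Il23a (chromosome 10, 128296139 to 128298752, minus strand), the p19 chain that makes p40 into IL-23, was the lowest of the cytokine genes. It was 0.187, 0.239, 0.379 and 0.130 TPM in 4 F/F PBS libraries and was listed at 0 in the other 2. In F/F Tat it ranged from 3.26 to 5.94 TPM (median 5.13). All F/F Tat libraries were above all F/F PBS libraries (log2 difference 4.50, standard error 0.32, adjusted p = 6.29e-11, limma), and over the other settings the log2 difference ran from 2.35 to 5.11.

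The chains of IL-27 behaved unlike each other. Il27 (chromosome 7, 126589010 to 126594941, minus strand), the p28 chain, was 3.43 to 5.08 TPM in F/F PBS (median 3.92) and 586 to 676 TPM in F/F Tat (median 657). Ebi3 (chromosome 17, 55952640 to 55957022, plus strand) was 59.4 to 67.9 TPM in F/F PBS (median 65.3) and 82.4 to 96.5 TPM in F/F Tat (median 91.2). Ebi3 was thus in excess of Il27 in PBS and well under it with Tat. The log2 difference was 7.31 for Il27 (standard error 0.07, adjusted p = 1.83e-24, limma). That of Ebi3 was 0.47 (standard error 0.05, adjusted p = 5.95e-08, limma), which passed but is under the 3-fold threshold, and was 1.10 after median-ratio scaling. Both genes overlap a gene on the opposite strand in the annotation, and the strandedness of the libraries is not given in the sources used here. Of the 31-base sequences of Il27, 7.37% also occur in Apobr, which fell from 38.6 to 8.80 TPM while Il27 rose, and 19% of those of Ebi3 occur in the antisense gene Gm16712.

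The receptor chains moved the other way. Il6st (chromosome 13, 112464070 to 112510086, plus strand), the signal-transducing chain of the whole IL-6 family, was 22.3 to 29.0 TPM in F/F PBS (median 25.2) and 9.15 to 10.8 TPM in F/F Tat (median 9.52). Il6ra (chromosome 3, 89864059 to 89913196, minus strand), the chain that binds IL-6 itself, was 14.4 to 17.7 TPM in F/F PBS (median 15.6) and 0.835 to 1.55 TPM in F/F Tat (median 1.21). Neither receptor gene had an overlap between the groups. Il6ra overlaps the antisense gene Gm42809, and 3.17% of its 31-base sequences also occur in other genes. Il6ra fell by 3.62 on the log2 scale (standard error 0.13, adjusted p = 2.82e-15, limma), and its F/F Tat mean was 7.65% of the F/F PBS mean. Over the other settings the log2 difference of Il6ra ran from -3.62 to -2.74. Il6st fell by 1.37 (standard error 0.07, adjusted p = 4.78e-13, limma), to 38.3% of the F/F PBS mean. Because most tested genes had lower TPM with Tat, the scaled differences were smaller, at -3.01 for Il6ra and -0.74 for Il6st, and both still passed.

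In all, 8 of the 10 genes passed as higher and 2 as lower with Tat, and 7 were called higher and 1, Il6ra, lower. Over all tested genes 17% passed as higher and 67.6% as lower, and 5.21% were called higher and 19.4% lower. The counts of the 10 genes were the same after median-ratio scaling, where 37.1% of all tested genes passed as higher, 38.1% as lower, 8.51% were called higher and 9.76% lower. The F/F Tat and F/F PBS libraries did not overlap for any of the 10 genes, 8 higher and 2 lower, against 15.3% of tested genes higher and 62.4% lower. The median log2 difference of the 10 genes was 4.87, beside -0.65 for all tested genes, and 5.39 after scaling, beside -0.03. The counts and the median of the 10 genes include Il23a and Lif. They entered the test only through the Tat groups, so their part in these values is no support.

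Deletion of IKKβ in myeloid cells was then examined in PMs given Tat. ΔMye Tat had less Il6, Il27, Il12a, Lif and Osm than F/F Tat and more Il12b, Il6st and Il6ra. Il6 and Il27 were reduced most, to 36.7% and 35.0% of the F/F Tat mean, and Il12b rose to 163% of it. For Il23a and Ebi3 the outcome depended on the processing.

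**Figure D2:**
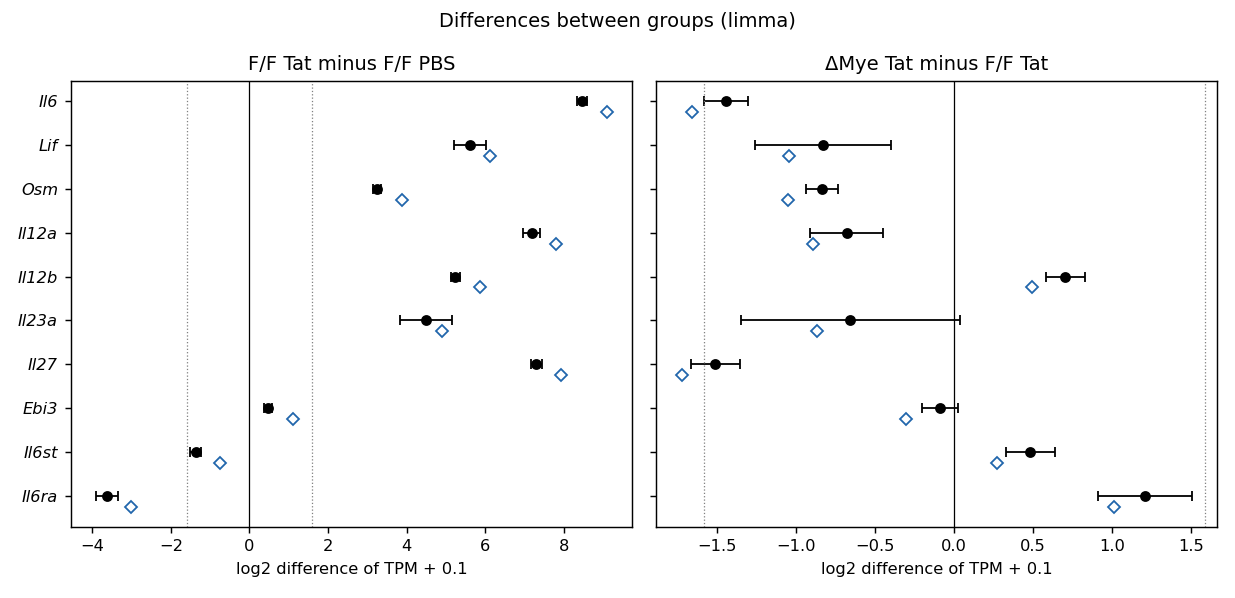
Log2 differences of TPM + 0.1 for the 10 genes, with F/F Tat minus F/F PBS on the left and ΔMye Tat minus F/F Tat on the right, on separate horizontal scales. Filled circles are limma estimates with 95% confidence intervals, open diamonds are the estimates after median-ratio scaling, and dotted lines mark a 3-fold difference. In the right panel Il12b, Il6st and Il6ra lie above 0, and Il6 and Il27 come nearest to the lower 3-fold line and pass it only after scaling.

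Il6 was 1269, 1251, 1264, 1202 and 1237 TPM in the ΔMye Tat libraries, a mean of 1244 ± 26.8 TPM (SD, n = 5). All of these were under the lowest F/F Tat library, at 3137 TPM, and above every F/F PBS library. The log2 difference from F/F Tat was -1.45 (standard error 0.07, 95% confidence interval -1.58 to -1.31, adjusted p = 1.46e-12, limma), and -1.66 after median-ratio scaling. Only 0.565% of tested genes had a more negative difference.

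Il27 was 238, 243, 212, 222 and 224 TPM in ΔMye Tat, with a mean of 228 ± 12.6 TPM (SD, n = 5). Its log2 difference was -1.51 (standard error 0.07, adjusted p = 4.08e-12, limma), the most negative of the 10 genes. Its partner Ebi3 was 94.8, 89.4, 80.8, 80.4 and 76.4 TPM, values that overlap the 82.4 to 96.5 TPM of F/F Tat. The log2 difference of Ebi3 was -0.09 (95% confidence interval -0.20 to 0.02, adjusted p = 0.158, limma), and an exact two-sided permutation test gave p = 0.195. After median-ratio scaling it was -0.30 (adjusted p = 3.92e-05, limma), so whether Ebi3 was lower depends on the scaling. Apobr, which shares sequence with Il27, was 10.7 TPM in ΔMye Tat and did not pass (adjusted p = 0.0535, limma).

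The subunits of IL-12 parted. Il12a was 292, 308, 285, 274 and 270.5 TPM in ΔMye Tat, 62.3% of the F/F Tat mean, with a log2 difference of -0.68 (standard error 0.11, adjusted p = 3e-05, limma). Il12b was 702, 692, 618, 605 and 575 TPM, with a log2 difference of 0.70 (standard error 0.06, adjusted p = 8.25e-09, limma). Every ΔMye Tat library had less Il12a and more Il12b than every F/F Tat library. After median-ratio scaling the differences were -0.89 and 0.49, and both passed. Dendritic cell markers summed to 0.884 to 1.54 TPM in ΔMye Tat and to 1.31 to 1.94 TPM in F/F Tat, and the part of such cells in the level of Il12b was not tested.

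Il23a was 3.45, 3.56, 2.79, 2.63 and 2.79 TPM in ΔMye Tat, all under 5 of the F/F Tat libraries but overlapping the lowest of them at 3.26 TPM. The log2 difference was -0.66 (95% confidence interval -1.35 to 0.04, adjusted p = 0.0938, limma), which did not pass. It passed with a pseudocount of 0.5 (-0.60, adjusted p = 0.00333, limma), with a pseudocount of 1 (-0.54, adjusted p = 0.000872) and in a fit of the Tat groups alone (-0.66, adjusted p = 0.00212), in which the low and variable F/F PBS values weigh less or not at all. An exact two-sided permutation test gave p = 0.00866, where the smallest p that these group sizes allow is 0.00216.

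The neighbours Lif and Osm were lowered to a like extent. Lif was 11.3, 10.2, 10.2, 10.7 and 8.08 TPM in ΔMye Tat, 56.1% of the F/F Tat mean (log2 difference -0.83, standard error 0.21, adjusted p = 0.00196, limma). Osm was 48.4, 50.5, 47.4, 47.0 and 47.3 TPM, 56.0% of the F/F Tat mean (log2 difference -0.84, standard error 0.05, adjusted p = 4.63e-11, limma). The groups did not overlap for either gene. The scaled differences were -1.04 for Lif and -1.05 for Osm.

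Il6st was 15.6, 13.1, 13.3, 12.7 and 13.0 TPM in ΔMye Tat, and Il6ra was 4.17, 2.39, 2.77, 2.43 and 2.84 TPM. These levels were above those of F/F Tat in every library and under those of F/F PBS in every library. The log2 difference from F/F Tat was 0.48 for Il6st (standard error 0.07, adjusted p = 2e-05, limma) and 1.21 for Il6ra (standard error 0.14, adjusted p = 7.55e-07, limma). Since tested genes were higher by a median of 0.22, the scaled values of 0.27 and 1.01 are the closer measure of how far these genes stood from the rest, and both passed. In library 19 both genes were highest of the group, and without it the differences were 0.43 and 1.08 (limma, adjusted p = 7.5e-05 and 1.18e-06). Neutrophils also carry the IL-6 receptor, and the neutrophil marker sum was higher in ΔMye Tat, as given above. S100a8, which made up nearly all of that sum, passed as higher as deposited (0.41, adjusted p = 1.07e-05, limma). It did not pass after scaling (0.20, adjusted p = 0.0309, limma). The part of neutrophils in the levels of Il6st and Il6ra was not tested.

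Between ΔMye Tat and F/F Tat, 3 of the 10 genes passed as higher, 5 as lower and 2 did not pass, and 0 were called at the 3-fold threshold by limma. Among all tested genes 38.8% passed as higher and 8.87% as lower, and 0.44% were called higher and 0.316% lower. With median-ratio scaling 3 passed as higher and 6 as lower, beside 16.4% and 18.8% of all tested genes, and Il6 and Il27 were called lower, beside 0.258% of tested genes called higher and 0.603% lower. The libraries of the Tat groups did not overlap for 3 of the 10 genes as higher and 5 as lower, against 28.6% and 8.01% of tested genes. The median log2 difference of the 10 genes was -0.67 as deposited and -0.88 after scaling, beside 0.22 and 0.01 for all tested genes.

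Set beside F/F PBS, ΔMye Tat still had higher levels of all 8 cytokine genes and lower levels of both receptor genes, a comparison that shares its groups with those above. Of the 10 genes, 8 passed as higher and 2 as lower, and 7 were called higher and 1 lower, where 17.5% and 58.8% of all tested genes passed and 4.38% and 11.1% were called. These counts again include Il23a and Lif, which entered the test only through the Tat groups and are no support. Il6 was 130-fold, Il12a 92.0-fold, Il12b 62.3-fold, Il27 56.5-fold and Osm 5.36-fold higher in the mean of ΔMye Tat than in that of F/F PBS. The log2 difference of Il6 was 7.02 (standard error 0.07, adjusted p = 2.02e-24, limma) and that of Il12b 5.95 (standard error 0.06, adjusted p = 5.02e-24, limma). Il6ra was at 18.6% and Il6st at 53.7% of the F/F PBS mean.

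The ratio of 2 well-expressed transcripts within a library hardly depends on how the libraries are scaled, so the balance of the chains was compared next, with exact two-sided permutation tests adjusted over 24 tests (8 ratios in 3 comparisons) and a threshold of 0.05. Ratios are of TPM + 0.1, and since TPM is already scaled for length they compare numbers of transcripts. Where a gene is near 0.1 TPM, as Il23a and Lif are in F/F PBS, the ratio still depends on the scaling. Tat turned the balance from Il12b and Ebi3 towards Il12a and Il27, and in ΔMye Tat it lay part of the way back.

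**Figure D3:**
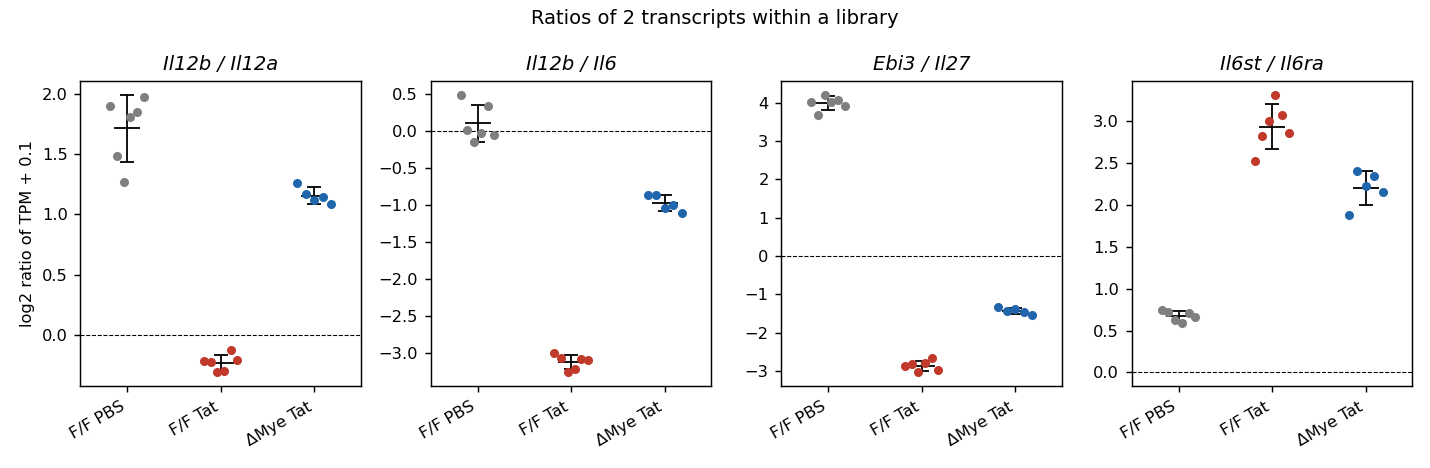
Log2 ratio of TPM + 0.1 between 2 transcripts in each library, for Il12b over Il12a, Il12b over Il6, Ebi3 over Il27 and Il6st over Il6ra, each on its own vertical scale. Points are libraries, bars show the mean and SD, and the dashed line marks equal levels. In every panel ΔMye Tat lies between the other groups without overlap, and only for Il12b over Il12a do F/F Tat and ΔMye Tat fall on opposite sides of the dashed line.

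The ratio of Il12b to Il12a was 3.28 in F/F PBS (geometric mean, range 2.40 to 3.93), 0.852 in F/F Tat (0.806 to 0.917) and 2.23 in ΔMye Tat (2.12 to 2.40). Transcripts of p40 were thus fewer than those of p35 in every F/F Tat library and more than those of p35 in every other library. ΔMye Tat exceeded F/F Tat by 1.38 on the log2 scale (exact permutation p = 0.00216, adjusted p = 0.00306), and F/F Tat was under F/F PBS by a log2 difference of -1.94 (exact permutation p = 0.00216, adjusted p = 0.00306). A p of 0.00216 is the smallest that these group sizes allow.

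The ratio of Il12b to Il6 was 1.08 in F/F PBS (range 0.908 to 1.41), 0.115 in F/F Tat (0.105 to 0.125) and 0.511 in ΔMye Tat (0.464 to 0.553). The difference of 2.15 on the log2 scale between the Tat groups was the largest of the 8 ratios in that comparison (exact permutation p = 0.00216, adjusted p = 0.00306). IL-6 transcripts thus outnumbered those of p40 in both Tat groups, but by less in ΔMye Tat.

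For IL-27, the ratio of Ebi3 to Il27 was 15.8 in F/F PBS (range 12.7 to 18.4), 0.138 in F/F Tat (0.122 to 0.157) and 0.370 in ΔMye Tat (0.342 to 0.398). The ratio of Ebi3 to Il12a, the chains of IL-35, was 20.6, 0.195 and 0.294 in the same order. In PBS the shared chain EBI3 was in excess of both partners, and with Tat it was the scarcer chain in both genotypes. The Tat groups differed by 1.42 and 0.59 on the log2 scale (exact permutation p = 0.00216, adjusted p = 0.00306 for each).

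The ratio of Il23a to Il12a, the chains that compete for p40, was 0.0107 in F/F Tat, while ΔMye Tat had 0.0109, with ranges of 0.00827 to 0.0130 and 0.00993 to 0.0121, and no difference was detected (exact permutation p = 0.848, adjusted p = 0.885). The ratio of Lif to Osm was 0.210 in both Tat groups (exact permutation p = 0.955, adjusted p = 0.955), with ranges of 0.191 to 0.240 and 0.173 to 0.236. In F/F PBS these ratios were 0.0693 and 0.0406, and each differed from F/F Tat (exact permutation p = 0.00216, adjusted p = 0.00306). The F/F PBS values of Il23a and Lif are near the pseudocount, which sets much of these ratios, so these differences are no support. With pseudocounts of 0.5 and 1 the log2 difference of the Lif to Osm ratio between F/F PBS and F/F Tat was 1.37 and 0.76 in place of 2.37. That of the Il23a to Il12a ratio lay between -4.48 and -3.96 in place of -2.69. The ratio of Il12b to Il23a was 47.3 for F/F PBS, 79.4 for F/F Tat and 204 for ΔMye Tat. The step from PBS to Tat was not past the threshold (exact permutation p = 0.0758, adjusted p = 0.0826), and it passed without F/F PBS library 2 (log2 difference 0.97, adjusted p = 0.0213, exact permutation test) or library 6 (0.93, adjusted p = 0.0331), the libraries in which Il23a was listed at 0. The step from F/F Tat to ΔMye Tat was 1.36 on the log2 scale (exact permutation p = 0.00216, adjusted p = 0.00306).

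The ratio of the receptor chains Il6st to Il6ra was 1.60 in F/F PBS (range 1.505 to 1.68), 7.60 in F/F Tat (5.71 to 9.89) and 4.59 in ΔMye Tat (3.68 to 5.30). Tat thus lowered the IL-6 binding chain by more than the shared signalling chain. ΔMye Tat lay under F/F Tat by a log2 difference of -0.73 (exact permutation p = 0.00433, adjusted p = 0.00495), without overlap.

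By mean TPM, the order of the genes changed with Tat and differed again between the Tat groups. In F/F PBS it ran Ebi3, Il6st, Il6ra, Il12b, Il6, Osm, Il27, Il12a, Lif and Il23a from high to low, and neighbours whose ranges overlapped were Il12b with Il6, Il6 with Osm, Il27 with Il12a, and Lif with Il23a. In F/F Tat it ran Il6, Il27, Il12a, Il12b, Ebi3, Osm, Lif, Il6st, Il23a and Il6ra, with overlap between Il12a and Il12b and between Ebi3 and Osm. The receptors, which stood near the top in PBS, were at or near the bottom with Tat. In ΔMye Tat it ran Il6, Il12b, Il12a, Il27, Ebi3, Osm, Il6st, Lif, Il23a and Il6ra, where only Il23a and Il6ra overlapped. Il12b took the place that Il27 held in F/F Tat, and by mean TPM over all 21683 genes Il12b went from place 366 in F/F Tat to place 234 in ΔMye Tat, while Il27 went from place 236 to place 585.

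Genes outside the families with the pattern most like Il6 over the 17 libraries were the chemokines Ccl3, Ccl2 and Ccl7 (Pearson's r of log2(TPM + 0.1) 0.9995, 0.9993 and 0.9991). Those most like Il12b were Iigp1, an immunity-related GTPase, Tnf, which encodes TNFα, and Cd14, the lipopolysaccharide coreceptor (r = 0.9990, 0.9989 and 0.9986). Tnf went from 127 to 1826 and 2267 TPM in F/F PBS, F/F Tat and ΔMye Tat, so its mean as deposited was also highest in ΔMye Tat. The median tested gene was itself higher there than in F/F Tat, by 0.22 on the log2 scale. Tnf was not compared after scaling here. Those most like Il6ra were Got2, Map3k4 and Fam50a (r = 0.9940, 0.9939 and 0.9938). These correlations describe 17 libraries that fall into 3 groups, and the group means set most of their size. Within the groups r was 0.52 to 0.66 for the Il6 set, -0.18 to 0.75 for the Il12b set and 0.64 to 0.81 for the Il6ra set.

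Other genes of the pathway were followed with lists of related cytokines, receptor chains, proteases, transducers, inhibitors, targets and regulators. Within these lists the largest rises with Tat were in the feedback inhibitors of cytokine signalling, and none of the tested genes of these lists differed between the Tat groups by as much as Il6 did. The counts below stand beside 17% of all tested genes that passed as higher and 67.6% as lower with Tat, and 38.8% and 8.87% between the Tat groups. They are also given after median-ratio scaling, where these shares were 37.1%, 38.1%, 16.4% and 18.8%, and several lists then had more genes lower in ΔMye Tat.

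**Figure D4:**
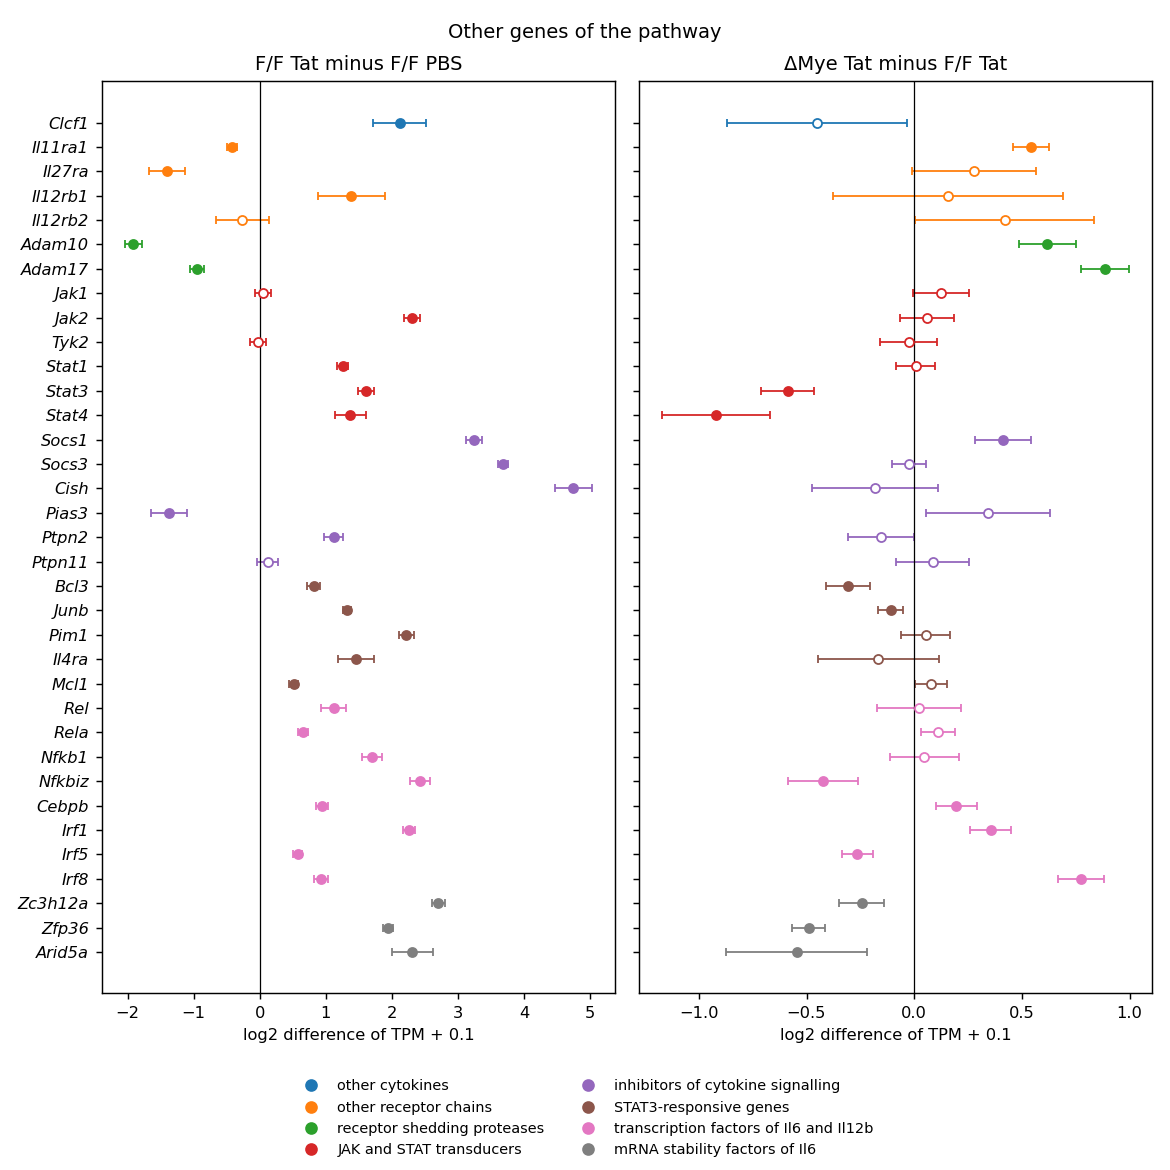
Log2 differences of TPM + 0.1 with 95% confidence intervals (limma) for the 35 tested genes of the 8 pathway lists, with F/F Tat minus F/F PBS on the left and ΔMye Tat minus F/F Tat on the right, on separate horizontal scales. Colours mark the list, and filled points passed at an adjusted p under 0.01 while open points did not. Cish, Socs3 and Socs1 lie farthest to the right with Tat, and in ΔMye Tat Stat4 and Stat3 lie lowest and Adam17 and Irf8 highest.

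Of 6 other cytokines of the IL-6 family, only Clcf1 was tested, and it rose with Tat from 1.05 to 4.69 TPM (log2 difference 2.12, adjusted p = 3.02e-09, limma). Too few F/F PBS libraries held it at 1 TPM to enter it without the Tat groups, so this rise is no support. Clcf1 was 3.38 TPM in ΔMye Tat (log2 difference -0.45, adjusted p = 0.0594, limma), where it passed as lower after scaling (-0.66, adjusted p = 0.00787, limma). The other 5 reached at most 0.539 TPM in any library. Of 8 other receptor chains 4 were tested, and with Tat 1 passed as higher and 2 as lower, all within the 3-fold threshold, and after scaling 2 as higher, 1 of them called, and 1 as lower. Il12rb1, a chain of the IL-12 and IL-23 receptors, was at most 0.750 TPM in F/F PBS and entered the test only through the Tat groups, so its call is no support. Its means were 0.467 TPM in F/F PBS and 1.33 TPM in F/F Tat. Il27ra, the IL-27 receptor chain, fell by 1.40 with Tat (adjusted p = 4.66e-09, limma), from 4.33 to 1.59 TPM, and by 0.79 after scaling. Il11ra1 passed as lower as deposited and as higher after median-ratio scaling (-0.42 and 0.21), so it has no stable direction with Tat. Between the Tat groups Il11ra1 was the 1 gene of the list that passed, as higher, with both scalings (0.54 and 0.33). The partner chains of the LIF and oncostatin M receptors, Lifr and Osmr, were under 1 TPM in every library, and Cntfr was listed at 0 in all of them.

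Both proteases that shed the IL-6 receptor from the cell surface passed as lower with Tat and as higher in ΔMye Tat than in F/F Tat, which are the directions of most tested genes that passed. Adam10 went from 65.7 to 17.4 TPM (log2 difference -1.91, adjusted p = 1.97e-16, limma) and was 26.8 TPM in ΔMye Tat, higher by 0.62 (adjusted p = 1.29e-07, limma). After scaling these differences were -1.28, under the 3-fold threshold, and 0.41. Adam17, which was not called and is named as the other gene of this list, was 114, 59.3 and 109.6 TPM in F/F PBS, F/F Tat and ΔMye Tat. It was lower with Tat by a log2 difference of -0.94 (adjusted p = 1.05e-12, limma), or -0.31 after scaling, and higher by 0.89 in ΔMye Tat than in F/F Tat (adjusted p = 8.9e-11, limma), or 0.67 after scaling. F/F Tat was thus lowest for both genes, as for Il6st and Il6ra. Adam10 in ΔMye Tat stayed under F/F PBS (log2 difference -1.29, or -0.87 after scaling). Adam17 in ΔMye Tat overlapped F/F PBS (log2 difference -0.06, adjusted p = 0.305, limma). After scaling Adam17 was above F/F PBS by 0.36 (adjusted p = 1.59e-07, limma).

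Of 6 JAK and STAT transducers 4 passed as higher with Tat and the other 2 did not pass, while after scaling all 6 passed as higher. Between the Tat groups 2 passed as lower, Stat3 and Stat4, and after scaling 5 did, all but Jak1. Jak2 rose from 36.3 to 179 TPM (log2 difference 2.30, adjusted p = 3.95e-18, limma) and was 187.5 TPM in ΔMye Tat (log2 difference 0.06, adjusted p = 0.4, limma), where it passed as lower after scaling (-0.15, adjusted p = 0.00504, limma). Stat3, the main transducer of IL-6, rose from 45.0 to 137 TPM (log2 difference 1.60, adjusted p = 9.26e-16, limma). In ΔMye Tat Stat3 was 91.6 TPM, a log2 difference of -0.59 (adjusted p = 9.01e-08, limma), and -0.80 after scaling.

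The inhibitors of cytokine signalling passed as higher with Tat in 4 of 6 genes and as lower in 1, and after scaling in 5 and 1. Cish, Socs3 and Socs1, which are induced by STATs and block cytokine receptors, had log2 differences of 4.74, 3.68 and 3.24 (adjusted p = 2.96e-17, 1.44e-24 and 3.23e-20, limma). Socs3, the inhibitor that binds gp130, was 53.0, 680.1 and 669.7 TPM in F/F PBS, F/F Tat and ΔMye Tat, and the Tat groups overlapped (log2 difference -0.02, 95% confidence interval -0.10 to 0.05, adjusted p = 0.578, limma). After median-ratio scaling Socs3 was lower in ΔMye Tat by a log2 difference of -0.24 (adjusted p = 1.81e-05, limma), beside -1.66 for Il6. Socs1 was the only gene of the list that passed between the Tat groups, with a log2 difference of 0.41 (adjusted p = 1.66e-05, limma) that was 0.20 and did not pass after scaling, where 2 genes, Socs3 and Ptpn2, passed as lower and 0 as higher.

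All 5 STAT3-responsive genes passed as higher with Tat. Pim1, a survival kinase, rose by a log2 difference of 2.22 (adjusted p = 1.67e-18, limma) and was the only gene of the list that was called, while after scaling 3 were. In ΔMye Tat 2 of the 5 passed as lower and the other 3 did not pass, and Pim1 was 391 TPM beside 376 TPM in F/F Tat (log2 difference 0.05, adjusted p = 0.416, limma). After scaling 3 of the 5 passed as lower, and Pim1 was 1 of them, with a log2 difference of -0.16 (adjusted p = 0.00396, limma), so it has no stable direction between the Tat groups.

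The transcription factors known to act on the Il6 and Il12b promoters passed as higher with Tat in 8 of 8 genes. Nfkbiz, a nuclear IκB protein needed for Il6 induction, rose by 2.42 on the log2 scale, Irf1 by 2.26 and Nfkb1 by 1.70 (adjusted p = 1.15e-16, 9.51e-20 and 2.65e-14, limma). In ΔMye Tat 3 passed as higher (Cebpb, Irf1 and Irf8) and 2 as lower (Irf5 and Nfkbiz), while after scaling 1 passed as higher (Irf8) and 3 as lower (Irf5, Nfkbiz and Rela), so the balance of the list depends on the scaling. Nfkbiz was lower by a log2 difference of -0.42 (adjusted p = 0.000129, limma), and of -0.64 after scaling. Irf5, an interferon regulatory factor that acts on inflammatory cytokine genes, had a log2 difference of -0.26 (adjusted p = 2.75e-06, limma), and of -0.48 after scaling. Cebpb, which binds the C/EBP motif, was higher by 0.20 (adjusted p = 0.001, limma), and at -0.02 did not pass after scaling. Irf8, which acts with IRF1 on the Il12b promoter, was 76.0, 144.5 and 247 TPM in F/F PBS, F/F Tat and ΔMye Tat (log2 difference between the Tat groups 0.77, adjusted p = 2.55e-10, limma, and 0.56 after scaling). Irf1 was higher by 0.35 (adjusted p = 2.82e-06, limma), and by 0.14 after scaling, which did not pass (adjusted p = 0.0268).

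Factors that set the stability of Il6 mRNA passed as higher with Tat in 3 of 3 genes and as lower in ΔMye Tat in 3 of 3, with the same counts after scaling. Zc3h12a, the endonuclease that degrades Il6 mRNA, had log2 differences of 2.70 with Tat and -0.24 in ΔMye Tat (adjusted p = 1.79e-20 and 0.000377, limma). Zfp36, which marks AU-rich mRNAs for decay, had 1.94 and -0.49 (adjusted p = 2.61e-20 and 1.84e-09). Arid5a, which protects Il6 mRNA, had 2.31 and -0.55 (adjusted p = 1.73e-11 and 0.00561), and its Tat groups overlapped. Factors of decay and of protection thus moved in the same direction in both comparisons.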

How the data were processed

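RNA-Seq of 17 PM libraries was analysed in 3 groups taken from the sample labels (F/F PBS, n = 6, F/F Tat, n = 6, and ΔMye Tat, n = 5). The deposited TPM, listed by gene symbol, were made by the authors with Salmon and the GRCm38 gene annotation of Ensembl (mm10 in the labels). The version of Salmon and the strandedness of the libraries are not given in the sources used here. TPM are relative to each library's total, so a few very abundant transcripts can lower all others. The labels place PM collection 3 days after 1 mL of 3% thioglycollate, and the methods of the study name another day.

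The 10451 genes that reached 1 TPM in 5 or more libraries entered limma 3.58.1 (R 4.3.3) on log2(TPM + 0.1), all 3 groups in 1 fit, with eBayes and trend. The study's thresholds were used, an adjusted p under 0.01 and, for calls, a fold change over 3. The script was tested on simulated data. Ratios of transcripts were compared with exact permutation tests in Python 3.11.15 (numpy 2.4.6, pandas 2.3.3). Positions are from GENCODE M21 (GRCm38) and promoters from RefSeq (GRCm38.p6). Alternatives were other pseudocounts and filters, median-ratio and quantile scaling, a fit of 2 groups, array weights with robust eBayes, and fits without 1 library.

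Named genes were the 10 family genes, Ikbkb, the called genes of the 8 pathway lists (at most 4 of each) and, for Il6, Il12b and Il6ra, the 3 genes with the highest Pearson's r. Other genes of the lists named in the text (such as Stat4, Adam17, Il11ra1, Il27ra, Irf5 and Cebpb) fall outside this rule and were chosen after their values were seen. The members and lists were chosen with earlier results of these data known.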

Additional observations from a re-analysis of the deposited data

Results flagged for a closer look

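In 30 sets of values (10 genes in 3 groups), 6 had a library that stood apart from the rest of its group by Dixon's test, which by chance marks about 1 set in 20. F/F Tat library 11 had the lowest Il12a (405.9 TPM, next 459.8 TPM), the lowest Il27 (586 TPM, next 654.5 TPM) and the lowest Osm (80.4 TPM, next 86.0 TPM), and the highest Il6st (10.8 TPM, next 9.67 TPM). Its median deviation from the group mean was -0.10 on the log2 scale over the 10 family genes and 0.01 over all tested genes. ΔMye Tat library 19 had the highest Il6st (15.6 TPM, next 13.3 TPM) and the highest Il6ra (4.17 TPM, next 2.84 TPM), and also the highest Ikbkb of its group (19.9 TPM). The median deviation of library 19 from its group mean was 0.16 over the 10 family genes and 0.07 over all tested genes, so other genes were also shifted in it. Leaving out either library changed no call of the 10 genes in any comparison. Why these libraries stood apart was not tested.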

How the results depend on the processing

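Leaving out each library in turn kept all 204 counts of passed or called family genes within 1.5 times and changed no direction or call among 510 differences of single genes. Under the other settings 95 counts and 232 differences kept theirs, while 1 count and 5 differences did not. These are the number of family genes called lower in ΔMye Tat than in F/F Tat, which was 2 with median-ratio scaling, and the differences of Il23a (pseudocounts of 0.5 and 1, and the fit of the Tat groups alone) and of Ebi3 between the Tat groups (-0.30 with median-ratio scaling and -0.17 with quantile normalization, adjusted p = 3.92e-05 and 0.00791, limma), which then passed. The filter at 5 TPM left Il23a without a value. Of the ratios, only the change of Il12b over Il23a with Tat gained a call, at 2.14 and 2.78 on the log2 scale with pseudocounts of 0.5 and 1 (adjusted p = 0.0026, exact permutation test). With each library left out in turn this ratio difference ran from 0.51 to 0.97. No paired analysis was possible because the groups share no replicate numbers. TPM hold no depth, so the precision of low genes such as Il23a and Lif in F/F PBS is known only from the spread of the libraries.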
